A study of Mus with 3 samples.

Results

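The 40 genes described here encode enzymes and regulators of the glutathione, thioredoxin and NRF2 antioxidant systems. They were chosen by symbol, and all 40 were found among the 27998 genes of the matrices. The 10x Chromium 3′ v3 kit was used on single cells of whole lungs of female mice aged 6 to 12 weeks. Wild-type mice challenged with PBS gave the WT PBS library, and wild-type mice challenged with ovalbumin, a model allergen, gave the WT OVA library. DJ-1 knockout mice challenged with ovalbumin gave the DJ-1 KO OVA library. Each group was 1 library that pooled cells of 3 mice, so the groups have no replicates and no test was possible. The labels name the knockout only as DJ-1 KO, and DJ-1 KO mice challenged with PBS were not analysed here. The title of the WT PBS sample names an OVA challenge, but its treatment label says PBS, and the group follows that label.

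Glutathione is a small thiol made from cysteine by glutamate-cysteine ligase and glutathione synthetase, and glutathione reductase returns its oxidised form to the reduced one with NADPH. Glutathione peroxidases use it to reduce peroxides, and glutathione transferases couple it to electrophiles. The thioredoxin system runs in parallel, with thioredoxin reductase keeping thioredoxin reduced and thioredoxin in turn serving the peroxiredoxins. NRF2, encoded by Nfe2l2, is the transcription factor that raises many of these genes under oxidative or electrophilic stress, and KEAP1 targets it for degradation. DJ-1, encoded by Park7, is a redox-sensitive protein that earlier work linked to the stability of NRF2. In the lung, these enzymes act in cells exposed to inhaled oxidants and to the oxidants of leukocytes.

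The libraries held 4556 to 6406 barcodes and 17339386 to 26548669 UMIs (unique molecules). Of the barcodes, 372 occurred in both WT PBS and DJ-1 KO OVA. The smaller cell of each pair was left out, 306 in WT PBS and 66 in DJ-1 KO OVA, with medians of 4.91% and 2.15% of the UMIs of their partners. After filters, 3855 cells remained in WT PBS (median 4093 UMIs), 5930 in WT OVA (median 2060.5) and 4438 in DJ-1 KO OVA (median 1653). The larger cells of the pairs stayed in. They held 90.5% of the UMIs of airway secretory-like cells in WT PBS and 94.9% in DJ-1 KO OVA. In DJ-1 KO OVA they also held 42.6% of the UMIs of alveolar type 2-like cells, 65.1% of those of alveolar macrophage-like cells and 34.8% of those of fibroblast-like cells. Values of members without them, after the remaining cells were clustered again, are given where this ends a call or moves a ratio by more than 1.5 times. Such values carry no interval, and those of airway secretory-like cells rest on few DJ-1 KO OVA UMIs. Airway WT OVA over WT PBS has no value in that setting, since WT PBS then has under 25 airway cells. Cells were clustered over all libraries and named from markers, and levels are CPM, counts per 1000000 UMIs of the class. One UMI stands for 1 captured transcript end, so CPM is not scaled by gene length. Brackets hold 95% intervals, exact Poisson for levels and exact conditional binomial for ratios, which cover counting error only. A gene is called higher or lower in a comparison where its ratio of CPM was past 1.5-fold and at least 20 UMIs were counted over both libraries. Unless stated otherwise, triplets of values are in the order WT PBS, then WT OVA, then DJ-1 KO OVA. WT OVA serves both comparisons, so the 2 sets of ratios share it. Some levels are said to lie under those of B cell-like cells of the same library. For genes of epithelial or stromal cells, the B cell level is what free RNA of other cells can give. For genes that B cells themselves express, such as Tkt, the comparison says nothing about free RNA.

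Park7 was checked first, since it is the gene named by the knockout. Over all kept cells it stood at 136 (131 to 140.3), 100.3 (96.2 to 104) and 20.8 (18.7 to 23.0) CPM. DJ-1 KO OVA held 0.207 (0.185 to 0.232) of the WT OVA level. It was lower in DJ-1 KO OVA in every class compared, from 0.109 in T cell-like cells to 0.271 in alveolar macrophage-like cells. Its UMIs remained in each class of the DJ-1 KO OVA library, from 3 in B cell-like to 62 in alveolar type 2-like cells, and their source was not tested. The ratio of WT OVA to WT PBS for this gene was 0.739 (0.701 to 0.780).

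The 40 genes did not share 1 cell type pattern. Levels were compared over 15 classes that had at least 25 cells in every library, and a member's place in that order was taken from its mean over the 3 libraries. The highest class was alveolar type 2-like for 7 members, neutrophil-like for 7, mesothelial-like for 6, airway secretory-like for 5, monocyte-like for 5, fibroblast-like for 4 and alveolar macrophage-like for 3. ILC2-like, dendritic-like and interstitial macrophage-like cells were the highest for 1 member each. Summed over the 40 genes, neutrophil-like cells had the highest mean, at 11986, 11931 and 11531 CPM. Airway secretory-like cells followed at 10088, 9602 and 9623 CPM and alveolar type 2-like cells at 7440.5, 8883 and 11586 CPM. T cell-like cells summed to 2559.8, 2886 and 3065 CPM and B cell-like cells to 1785, 2000.3 and 2168 CPM, the lowest of the 15 classes. In DJ-1 KO OVA the sum of alveolar type 2-like cells was as high as that of neutrophil-like cells.

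**Figure D1:**
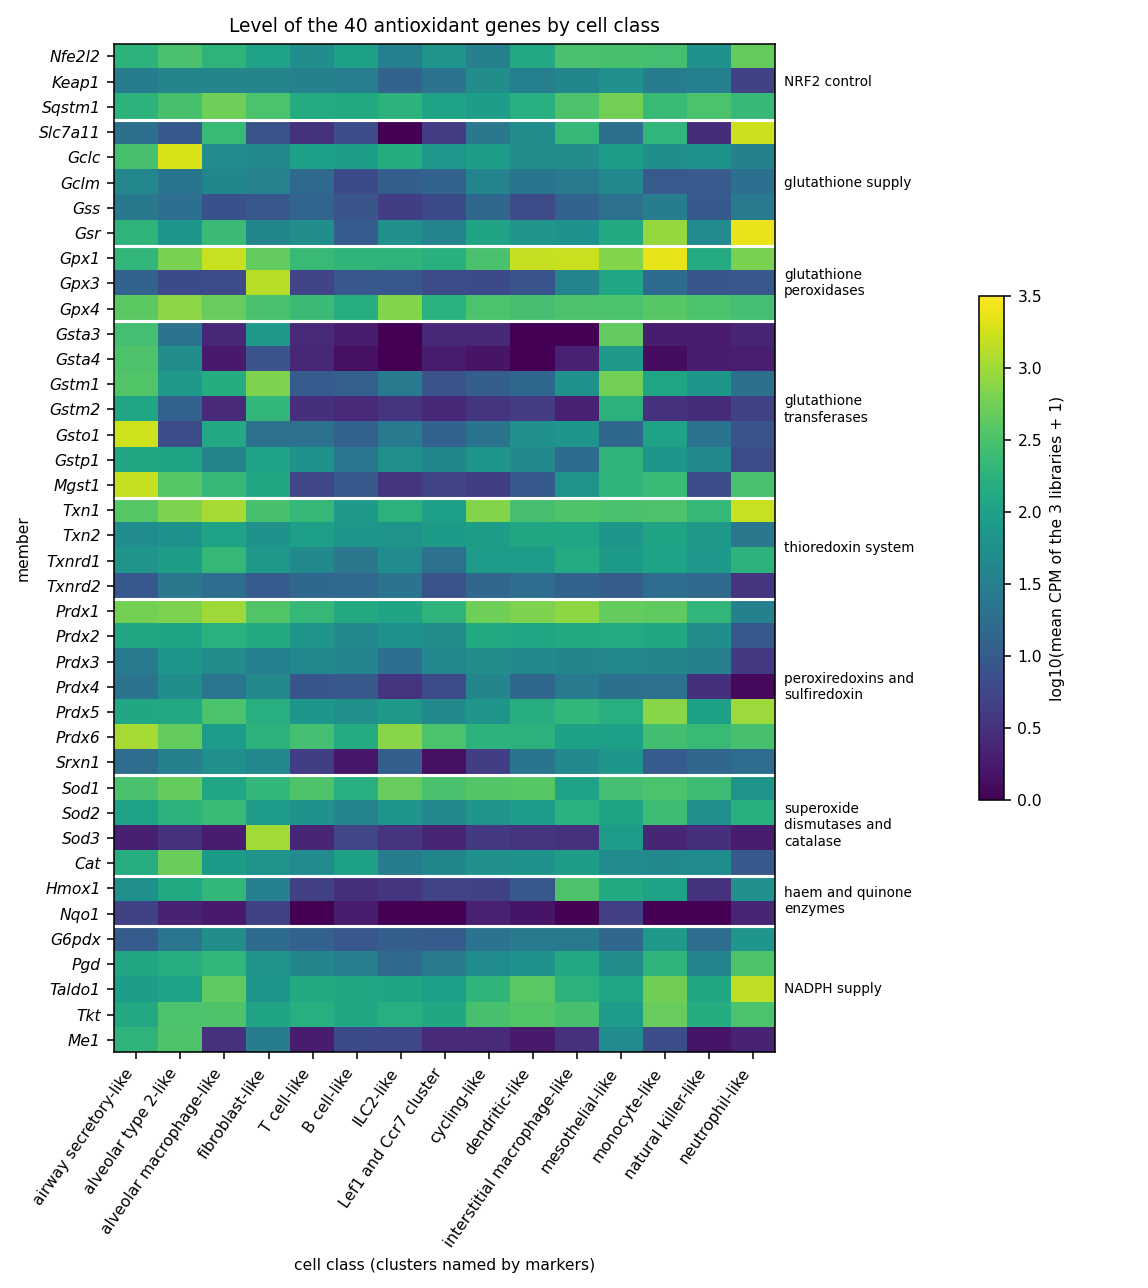
Mean level of each of the 40 antioxidant genes over the 3 libraries (rows, grouped by role) in 15 cell classes (columns), as log10 of CPM plus 1. Bright cells mark Gclc in alveolar type 2-like cells, Gsto1 and Mgst1 in airway secretory-like cells, and Gpx3 and Sod3 in fibroblast-like cells. Slc7a11 and Gsr are brightest in neutrophil-like cells, with monocyte-like cells next for Gsr.

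Among the regulators, Nfe2l2 was broadly present, with its highest level in neutrophil-like cells at 436, 426 and 529 CPM, and 291, 323 and 309 CPM in alveolar type 2-like cells. Keap1 was low, between 3.91 CPM in neutrophil-like cells and 57.3 CPM in mesothelial-like cells as means of the libraries. Sqstm1 encodes p62, an autophagy receptor that binds KEAP1. It was highest in mesothelial-like cells, at 553, 668 and 474 CPM, and nearly as high in alveolar macrophage-like cells, at 604, 609 and 382 CPM.

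The genes that supply glutathione were split between cell types. Gclc, the catalytic subunit of glutamate-cysteine ligase (chromosome 9, 77754535 to 77794489, GRCm38.p6), stood at 963, 1282 and 3491 CPM in alveolar type 2-like cells. The next class, airway secretory-like cells, had 338, 239.9 and 330.5 CPM, and the median class had a mean of 71.4 CPM. Its partner Gclm, the modifier subunit, was low everywhere, at most 41.8 CPM as a mean, in mesothelial-like cells, and no single library had its highest level there. Slc7a11, the cystine importer xCT, stood at 1644, 1364 and 2197 CPM in neutrophil-like cells and 142, 274 and 259.6 CPM in alveolar macrophage-like cells, against a median class mean of 18.7 CPM. Gsr, glutathione reductase, was also led by neutrophil-like cells, at 1786, 2649.8 and 2726 CPM, and followed by monocyte-like cells at 783, 891 and 948 CPM. Gss, glutathione synthetase, was low in every class, with 26.2, 30.8 and 29.2 CPM in monocyte-like cells.

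Peroxidases differed as sharply. Gpx1, the cytosolic selenoenzyme, was highest in monocyte-like cells at 2147, 2672 and 2299 CPM and stood at 1591, 1575 and 1617 CPM in alveolar macrophage-like cells. Gpx3, the secreted form, was a fibroblast gene here, at 916, 1356 and 1768 CPM. Mesothelial-like cells came next at 101, 87.4 and 164 CPM. Gpx4, which reduces lipid hydroperoxides, was broad and led by alveolar type 2-like cells at 642, 819.8 and 897 CPM.

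Transferases were genes of lining and stromal cells. Gsto1, an omega-class transferase, stood at 1349, 1774 and 2136 CPM in airway secretory-like cells, and the second class had a mean of 127 CPM. Mgst1, a microsomal transferase, was led by the same cells at 1854, 1525 and 1232 CPM. Gsta4, which acts on lipid aldehydes, stood there at 378, 314 and 306 CPM. Gsta3 was highest in mesothelial-like cells at 654, 372 and 352 CPM. Gstm1 and Gstm2 lie near each other on chromosome 3 (108012250 to 108017973 and 107981702 to 107986420) and were both highest in fibroblast-like cells, at 792, 711 and 474 CPM for Gstm1 and 206, 181 and 235 CPM for Gstm2. Gstm1 was also present in alveolar macrophage-like cells, at 251, 154 and 33.0 CPM, where Gstm2 had 0.967, 2.12 and 1.81 CPM. Gstp1 was led by mesothelial-like cells at 190.3, 188 and 183 CPM. Members of these families have close paralogs, and how the authors' counting treated reads shared by copies is not given in the sources used here, so their levels are uncertain.

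In the thioredoxin system, Txn1, cytosolic thioredoxin, had its highest mean in neutrophil-like cells, at 2255, 1673 and 931 CPM, and alveolar macrophage-like cells had 1219, 1126 and 934 CPM. Txnrd1, its reductase, was led by alveolar macrophage-like cells at 195, 252 and 197 CPM in mean level, while class means of the mitochondrial pair ran from 23.2 to 123 CPM for Txn2 and from 2.39 to 23.7 CPM for Txnrd2. Among the peroxiredoxins, which reduce peroxides through a reactive cysteine, Prdx1 and Prdx2 were led by alveolar macrophage-like cells as means, at 995 and 171 CPM. Prdx6, a lipid-reducing form with phospholipase activity, was led by airway secretory-like cells at 1187, 1130.4 and 1013 CPM. Prdx5 was highest in neutrophil-like cells, at 1423, 974 and 487 CPM, where Prdx1 had only 19.5, 34.1 and 46.6 CPM. Prdx3, the mitochondrial form, and Prdx4, the form of the endoplasmic reticulum, were led by alveolar type 2-like cells at means of 68.8 and 54.3 CPM. Srxn1, sulfiredoxin, which repairs over-oxidised peroxiredoxins, was low, with a mean of 70.3 CPM in mesothelial-like cells.

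Sod3, the extracellular superoxide dismutase, was, like Gpx3, a fibroblast gene, with 936, 997 and 1214 CPM in fibroblast-like cells and a median class mean of 2.14 CPM. Sod1, the cytosolic form, had class means from 63.7 to 479 CPM. Sod2, the mitochondrial form, was led by monocyte-like cells at 287, 227 and 233 CPM. Cat, catalase, was an alveolar type 2 gene, at 576, 614 and 298 CPM there against 189, 171 and 92.0 CPM in airway secretory-like cells. Hmox1, haem oxygenase 1, was led by interstitial macrophage-like cells at 88.8, 215 and 703 CPM, a class it led in 1 of the 3 libraries. Nqo1, a quinone reductase and textbook NRF2 target, was close to its floor, with at most 3.79 CPM as a mean, and it had under 20 UMIs in each comparison of the 6 classes. Of the enzymes of the pentose phosphate pathway, Taldo1 and Pgd were led by neutrophil-like cells at 1584, 1454 and 1409.6 and 378, 413 and 237 CPM. Tkt and G6pdx, of the same pathway, were led by monocyte-like cells at 456, 480.3 and 501 and 78.5, 95.7 and 48.6 CPM. Me1, malic enzyme 1, was an epithelial gene, with 198, 288 and 537 CPM in alveolar type 2-like cells, 90.03, 139.8 and 325 CPM in airway secretory-like cells and a median class mean of 2.19 CPM.

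Airway secretory-like cells held 51, 116 and 109 cells of the libraries, with medians of 38873, 24054.5 and 22792 UMIs. Their make-up differed: club-like clusters held 49, 87 and 39 of these cells and goblet-like clusters 2, 29 and 70. The 10 club markers summed to 517114, 476473 and 338627 CPM, with Retnlb at 0 in WT PBS and Upk3a at 0 in DJ-1 KO OVA. The 10 goblet markers summed to 6986, 21923 and 40323 CPM, with none at 0. In WT OVA against WT PBS, 4 of 38 measured members were higher, where 12% of all 8709 measured genes were, and 5 were lower, against 12.3% of all. With the smaller cells of shared barcodes kept the counts were 1 higher and 9 lower, and the share of all genes in that setting is not given. The member median was a log2 ratio of -0.11, and all measured genes had a median ratio of 0.998.

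Glutathione reductase, the cystine importer and 2 NADPH-supplying enzymes stood higher in airway cells of WT OVA, and 3 transferases stood lower. No ratio of this comparison has a value without the cells of shared barcodes, so its dependence on them is not known. Gsr was at 95.5, 159.7 and 302 CPM in the 3 libraries, and the WT OVA ratio was 1.67 (1.40 to 2.004). Its call ended with the smaller cells of pairs kept, at 1.43. Slc7a11 stood at 16.0, 26.7 and 13.8 CPM with a ratio of 1.67 (1.07 to 2.66), which was 0.919 with every cell weighted alike and 1.10 with the smaller cells of pairs kept. Both genes were thus above WT PBS by summed UMIs, but only Gsr kept its direction under every setting run. Me1 was at a ratio of 1.55 (1.29 to 1.88), and 1.32 in club-like clusters. It was at 1.29 with the smaller cells of pairs kept and 1.47 at a finer clustering, so these settings ended its call too. G6pdx, the first enzyme of the pentose phosphate pathway, was at 2.53 (1.14 to 6.38), from 8 UMIs in WT PBS. Taldo1, of that pathway's later part, was at 0.629 (0.514 to 0.768), and its level lay under that of B cell-like cells of the same library.

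Of the 7 transferases, 3 were lower in WT OVA. Gstm1 stood at 555, 309 and 195 CPM, with a WT OVA over WT PBS ratio of 0.558 (0.508 to 0.612). Gsta3 stood at 438, 257 and 169 CPM, with a ratio of 0.587 (0.530 to 0.651). Gstm2 stood at 169, 107 and 67.8 CPM, with a ratio of 0.631 (0.536 to 0.742), and 0.715 in club-like clusters. The 3 libraries were in the same order for each, WT PBS highest and DJ-1 KO OVA lowest. Gpx3 was also lower in WT OVA, at 0.483 (0.242 to 0.946), from 23, 17 and 48 UMIs in the 3 libraries. Of 61 other pathway genes measured, 2 were higher and 9 lower. The 2 higher were Mgst2, another microsomal transferase, at 1.59 (1.26 to 2.01), and Ggct, which cleaves gamma-glutamyl dipeptides, at 1.599 (0.708 to 3.94), with an interval that includes 1. Gstz1 was at 0.521 (0.341 to 0.792), Mafg, a small MAF partner of NRF2, at 0.531 (0.403 to 0.698), and Ftl1, a ferritin chain, at 0.571 (0.545 to 0.598). Gstm5 was at 0.523 (0.307 to 0.885) and turned to 1.61 at a finer clustering.

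In DJ-1 KO OVA against WT OVA, 3 of 38 measured members were higher in airway secretory-like cells and 8 lower, where 18.1% of all 9322 measured genes were higher and 8.46% lower. The counts moved with the cells used: 13 were higher without shared barcodes, 8 higher and 4 lower with cells weighted alike, 5 higher at no more than 10% mitochondrial UMIs, and 3 lower in club-like clusters alone. Shares of all genes in those settings are not given, so these counts are not a result about the members. Over the members the median was a log2 ratio of -0.01 and that of all genes 0.15. Me1 stood at 90.03, 139.8 and 325 CPM, and DJ-1 KO OVA was 2.33 (2.06 to 2.63) times WT OVA. It was higher in both kinds of cluster, with a ratio of 1.87 (1.54 to 2.27) in club-like and 1.82 (1.54 to 2.16) in goblet-like clusters. Gsr had a ratio of 1.89 (1.68 to 2.12), 1.47 (1.23 to 1.76) in club-like and 1.74 (1.46 to 2.08) in goblet-like clusters. Shared barcodes were 78 of the 109 DJ-1 KO OVA airway cells, and with both cells of each left out it was 2.91. Gpx3, the third member higher, had 23, 17 and 48 UMIs in the libraries, 29.2% of those of DJ-1 KO OVA in 1 cell. Its ratio of 2.70 (1.53 to 5.01) was 1.03 in club-like clusters and 1.03 without shared barcodes.

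Of the 8 members lower in DJ-1 KO OVA, 7 had an interval below 1, and in club-like clusters Sqstm1 alone of these 7 stayed past 1.5-fold. Cat had a ratio of 0.539 (0.462 to 0.628), 0.779 (0.648 to 0.933) in club-like and 0.610 (0.441 to 0.847) in goblet-like clusters. Gstm1 had 0.631 (0.566 to 0.702), with 0.916 (0.801 to 1.04) in club-like and 0.556 (0.455 to 0.682) in goblet-like clusters. Gsta3 had 0.656 (0.583 to 0.737) and Gstm2 0.636 (0.528 to 0.764), and in club-like clusters they had 0.740 and 0.906. Sqstm1 was lower in both kinds of cluster, at 0.623 (0.516 to 0.751) and 0.740 (0.602 to 0.913), and overall at 0.648 (0.570 to 0.736). Slc7a11 had 0.517 (0.343 to 0.770), and its interval included 1 in each kind of cluster, at 0.778 (0.481 to 1.23) and 0.652 (0.245 to 1.84). Hmox1 had 0.632 (0.492 to 0.810), but 1.09 (0.828 to 1.43) in club-like clusters. Of the 109 DJ-1 KO OVA airway cells, 31 had no shared barcode, and cells with a shared barcode held 94.9% of the UMIs. Values with both cells of shared barcodes left out thus rest on few UMIs and have no interval here. In that setting Sqstm1, Slc7a11, Gstm1 and Hmox1 no longer stood below 1, at 1.31, 1.51, 1.00 and 3.05. Cat, Gsta3 and Gstm2 stayed below, at 0.631, 0.654 and 0.884. Txnrd2, the eighth, was at 0.615 (0.320 to 1.15). The goblet share of the cells and the 2 marker sums differ between these libraries too, and their part in the pooled ratios was not tested beyond the values within clusters.

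The club-like clusters also differed in make-up. A cluster led by Retnla and Gabrp held 2, 13 and 26 cells of the libraries, and a cluster led by Bpifa1 held 21, 28 and 2. The goblet-like cluster with Gsto1 among its leading genes held 2, 21 and 1. The part of this in the ratios was not tested, and no share of all genes is given for club-like clusters. Within club-like clusters, 4 members that the pooled ratios did not call were past 1.5-fold with an interval that excludes 1. Nfe2l2 was one of them, at 199, 216 and 135 CPM, a DJ-1 KO OVA over WT OVA ratio of 0.626 (0.515 to 0.757), against 0.882 (0.718 to 1.09) in goblet-like clusters. Gclm was at 1.503 (1.05 to 2.15). Gclc was at 348, 276 and 681 CPM there, with a DJ-1 KO OVA over WT OVA ratio of 2.46 (2.20 to 2.76), and 0.821 (0.653 to 1.04) in goblet-like clusters. In the pooled airway class 1 DJ-1 KO OVA cell held 17.99% of its Gclc UMIs. Gsto1 was at 1297, 1236 and 501 CPM in club-like clusters, a ratio of 0.405 (0.369 to 0.445), and at 3124 and 3109 CPM in the goblet-like clusters of WT OVA and DJ-1 KO OVA, a ratio of 0.995 (0.949 to 1.04). Gsto1 is among the leading genes of a goblet-like cluster, and these genes took part in the clustering, so these within-cluster values are descriptions chosen after they were seen. Of 64 other pathway genes measured in airway cells, 8 were higher and 9 lower. Chac2, which degrades glutathione, was at 2.63 (1.32 to 5.60) and Txndc5, a thioredoxin-domain protein of the endoplasmic reticulum, at 1.70 (1.46 to 1.98), and without shared barcodes they were at 4.66 and 2.84. Glrx and Glrx2, glutaredoxins, were at 1.65 (1.18 to 2.32) and 1.604 (1.19 to 2.18), and below 1, at 0.654 and 0.525, without shared barcodes. Gsta1 was at 0.359 (0.115 to 0.965), Gsta2 at 0.532 (0.341 to 0.816), Maff, another small MAF protein, at 0.469 (0.374 to 0.585) and 0.912 without shared barcodes, and the NRF2 target Osgin1 at 0.521 (0.423 to 0.640). Gsta2 and Osgin1 lost their calls in club-like clusters alone, at 0.739 and 0.760, and Gsta2 was at 0.296 without shared barcodes.

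**Figure D2:**
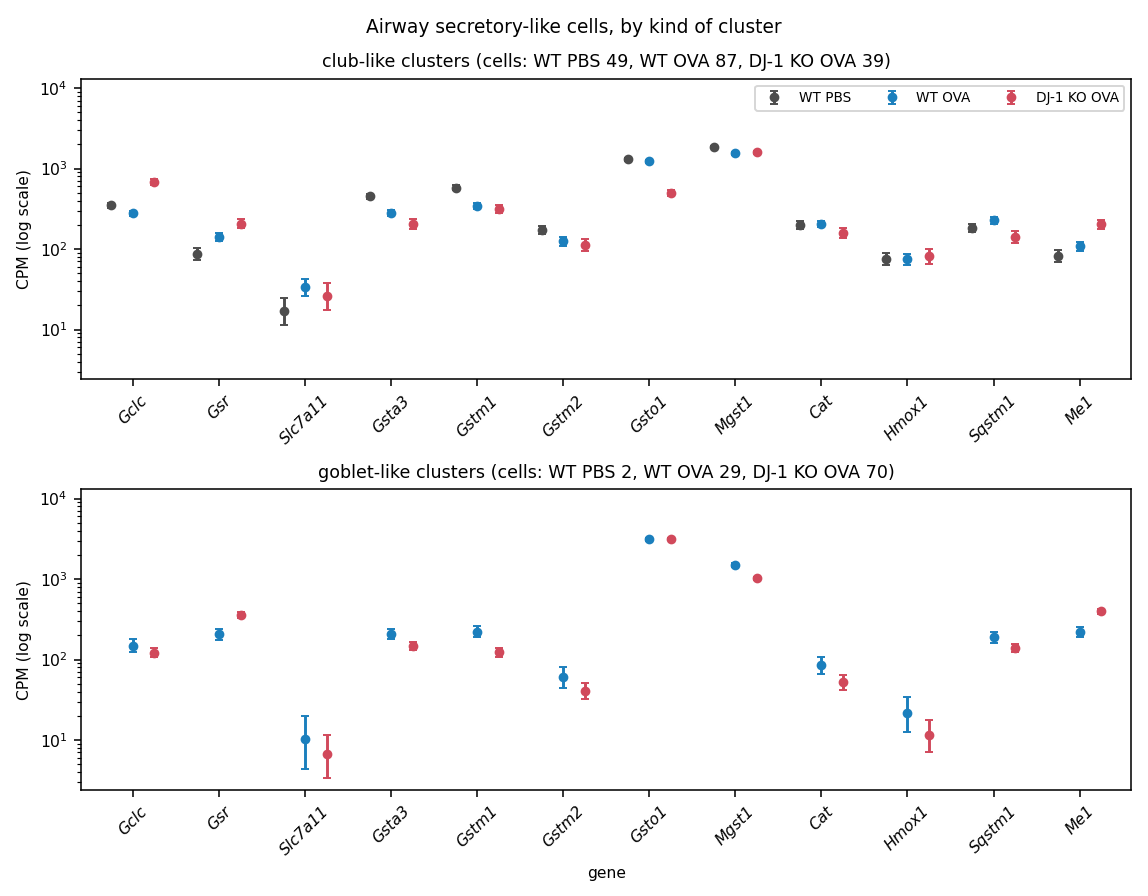
Levels (CPM, log scale) of 12 members in club-like clusters (top) and goblet-like clusters (bottom), with points for the libraries and bars for 95% Poisson intervals. The goblet-like clusters show no WT PBS points because they held 2 of its cells. Me1 and Gsr are highest in DJ-1 KO OVA in both panels, and Gsto1 is lower in DJ-1 KO OVA in the club-like clusters only.

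Alveolar type 2-like cells, the surfactant-making cells of the alveolus, held 305, 776 and 297 cells, with medians of 13946, 6922 and 9250 UMIs. Most WT PBS and WT OVA cells, 303 and 689, were in 1 main cluster, and most DJ-1 KO OVA cells, 226 against 71, were in a cluster with Slc26a4, an anion exchanger, and Gclc among its leading genes. The 10 alveolar type 2 markers were all present and summed to 224739, 175433 and 141898 CPM. The 10 goblet markers, Slc26a4 among them, summed to 30.02, 117 and 1021 CPM, with Gp2 at 0 in every library, Muc5ac at 0 in both wild-type libraries and Agr2 at 0 in WT PBS. Relative to WT PBS, 5 of 38 members were higher and 0 lower in WT OVA, where 9.25% of 10884 genes were higher and 7.2% lower. The member median was a log2 ratio of 0.09, and that of all genes 0.07.

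Sod1 and Gpx1 stood higher in alveolar type 2-like cells of WT OVA. Sod1 was at 338, 571 and 519.6 CPM, a WT OVA over WT PBS ratio of 1.69 (1.59 to 1.80). Gpx1 was at 415, 665 and 789 CPM, a ratio of 1.604 (1.51 to 1.70). Gsr was at 43.3, 65.7 and 98.1 CPM, a ratio of 1.52 (1.26 to 1.82). WT PBS was the lowest of the 3 libraries for each. The call of Gsr ended under 4 settings, with values from 1.39 to 1.47, and that of Gpx1 under 1, at 1.47. Gpx3, at 5.51 (1.66 to 28.8), rested on 3, 22 and 28 UMIs and lay under its level in B cell-like cells. Of 58 other pathway genes, 1 was higher, Maff at 1.67 (1.48 to 1.90), and 5 were lower. Gpx8 was at 0.592 (0.492 to 0.713), Txndc12 at 0.621 (0.480 to 0.802), Abcc4 at 0.653 (0.443 to 0.960) and Ggct at 0.661 (0.445 to 0.980). Ggct lay under its level in B cell-like cells, and 5 settings ended its call, with values up to 0.983 with cells weighted alike.

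Relative to WT OVA, 8 of 38 members of DJ-1 KO OVA were higher in alveolar type 2-like cells and 4 lower, where 17% of 10748 genes were higher and 8.92% lower. The members had a median log2 ratio of 0.23, against 0.09 for all genes. Gclc was the member with the highest ratio. It stood at 963 (934 to 994), 1282 (1252 to 1312) and 3491 (3421 to 3562) CPM, and the ratio was 2.72 (2.64 to 2.81). Within clusters the ratio was 2.50 (2.36 to 2.65) in the main cluster and 2.30 (2.17 to 2.45) in the Slc26a4 cluster. It stayed past 1.5-fold under every setting run. Gclc is among the leading genes of the Slc26a4 cluster, so the split into clusters is not independent of its level. The within-cluster values of Gclc and of the members below are descriptions only. Gclc made up 30.1% of the members' summed UMIs in DJ-1 KO OVA, 14.4% in WT OVA and 12.9% in WT PBS. Without Gclc the members summed to 6477, 7601 and 8095 CPM in these cells.

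Another 6 members stood higher in the pooled class, with smaller or opposite ratios within clusters for several. Sod2 was at 107, 129 and 308 CPM, a ratio of 2.38 (2.15 to 2.64), with 1.42 (1.11 to 1.80) in the main cluster and 2.05 (1.71 to 2.48) in the Slc26a4 cluster. Me1 was at a ratio of 1.87 (1.74 to 2.01), with 1.23 (1.03 to 1.46) and 1.43 (1.27 to 1.61) in the same clusters. Tkt was at 1.52 (1.41 to 1.64), with 1.27 (1.07 to 1.49) and 1.69 (1.46 to 1.96). These 3 were above 1 in both clusters, but in the main cluster 0 of the 3 were past 1.5-fold. Prdx3 was at 1.51 (1.28 to 1.79), with 1.33 (0.912 to 1.89) and 1.32 (0.991 to 1.79). Prdx4 was at 1.97 (1.61 to 2.40), with 0.990 (0.541 to 1.68) and 1.31 (0.963 to 1.82), so its intervals included 1 within each cluster. Slc7a11 was at 2.03 (1.23 to 3.33) from 30, 35 and 35 UMIs, but 0.604 (0.3305 to 1.13) in the Slc26a4 cluster and 2.58 (0.627 to 7.98) in the main one. Gpx3, the eighth member higher, was at 2.58 (1.42 to 4.73) from few UMIs, as above.

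Cat and Mgst1 were the 2 lower members that stayed below 1 in both clusters. Cat was at 576, 614 and 298 CPM, a DJ-1 KO OVA over WT OVA ratio of 0.486 (0.450 to 0.525), with 0.773 (0.672 to 0.886) in the main cluster and 0.576 (0.505 to 0.658) in the Slc26a4 cluster. Mgst1 was at 455, 403 and 266 CPM, a ratio of 0.658 (0.604 to 0.716), with 0.636 (0.522 to 0.768) and 0.636 (0.557 to 0.727). Gstm1, at 0.603 (0.497 to 0.729), and Gsta3, at 0.616 (0.417 to 0.892), were not lower in the main cluster, at 1.11 (0.795 to 1.52) and 1.04 (0.504 to 1.93). Without the cells of shared barcodes Prdx4, Tkt, Prdx3 and Mgst1 were no longer past 1.5-fold, at 1.28, 1.49, 1.46 and 0.674. Of 59 other pathway genes, 12 were higher and 6 lower. Chac1 and Chac2, which degrade glutathione, were at 3.38 (1.38 to 8.75) and 2.03 (1.19 to 3.45). Gstm4 was at 2.50 (1.26 to 5.05). Akr1b8, an aldo-keto reductase, was at 2.31 (1.77 to 3.02), but 0.869 outside the Slc26a4 cluster. Ftl1 was at 0.643 (0.616 to 0.670), Selenop, a selenium carrier, at 0.635 (0.596 to 0.676), Gpx8 at 0.614 (0.455 to 0.817) and Blvrb, a biliverdin reductase, at 0.537 (0.403 to 0.707), the last under its level in B cell-like cells. Outside the Slc26a4 cluster Ftl1 was at 0.986, Selenop at 0.775 and Gpx8 at 0.723, none past the limit.

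**Figure D3:**
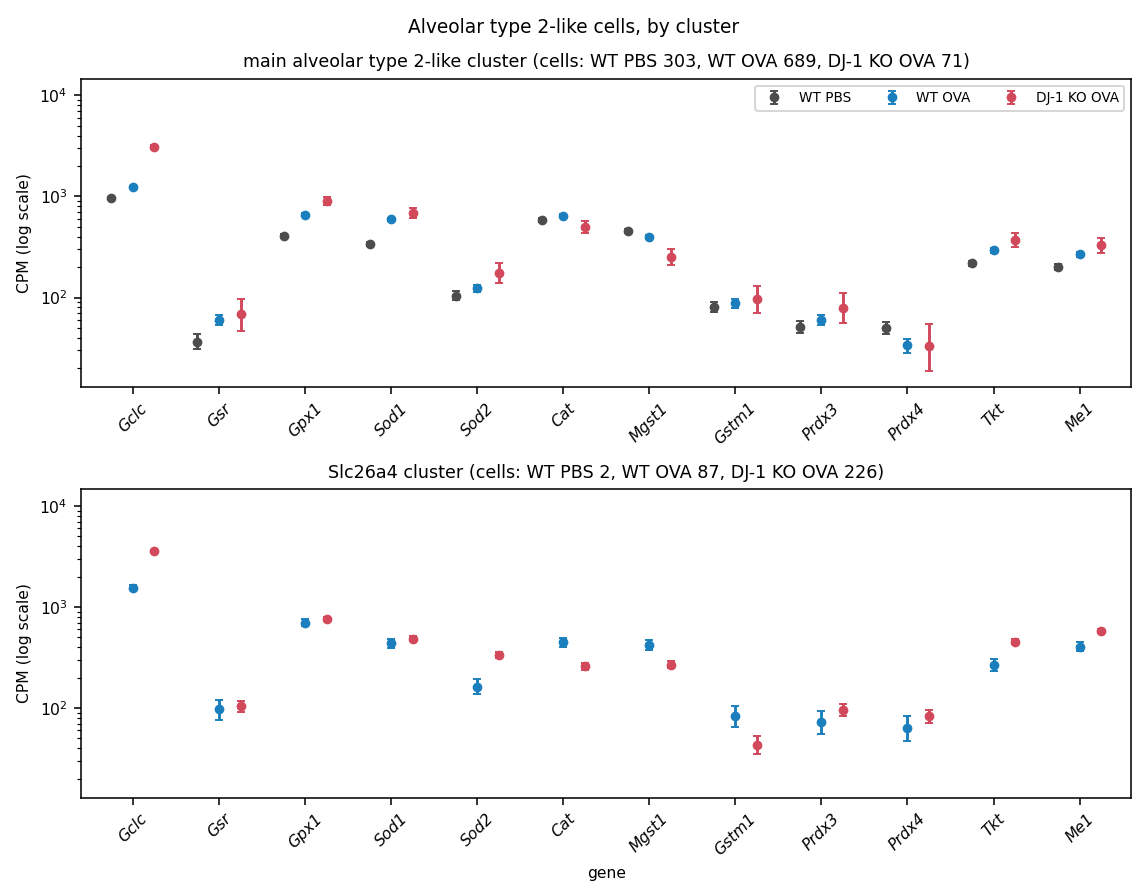
Levels (CPM, log scale) of 12 members in the main alveolar type 2-like cluster (top) and in the cluster with Slc26a4 among its leading genes (bottom), with points for the libraries and bars for 95% Poisson intervals. The lower panel shows no WT PBS points because that cluster held 2 of its cells. Gclc is highest in DJ-1 KO OVA in both panels, and Cat and Mgst1 are lowest there in both.

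Alveolar macrophage-like cells, the resident phagocytes of the airspace, held 55, 176 and 221 cells, with medians of 18587, 10710.5 and 7370 UMIs. Their 10 markers were all present and summed to 19452, 56108 and 99614 CPM. The 10 neutrophil markers summed to 1119, 377 and 53.3 CPM in these cells and to 230600, 165379 and 91942 CPM in neutrophil-like cells, with none at 0 in either. In WT OVA against WT PBS, 3 of 33 members were higher and 5 lower, where 9.66% of 8550 genes were higher and 15.7% lower. The members' median was a log2 ratio of -0.00, against -0.10 for all genes.

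Slc7a11, Srxn1 and Hmox1 were the 3 members higher in WT OVA, a share near that of all genes. Known NRF2 targets stood on both sides, these 3 higher and others, such as Gclm and Osgin1, lower. Srxn1 stood at 33.8, 69.5 and 65.9 CPM, a WT OVA over WT PBS ratio of 2.05 (1.40 to 3.07). Slc7a11 stood at 142, 274 and 259.6 CPM, a ratio of 1.93 (1.603 to 2.33). Hmox1 stood at 144, 257 and 213 CPM, a ratio of 1.78 (1.48 to 2.15). The WT PBS value was the lowest of the 3 libraries for each, and the WT OVA and DJ-1 KO OVA values lay close together. In WT PBS 5 cells held 51.0% of the Slc7a11 UMIs and 43.6% of the Hmox1 UMIs. Gclm, another known target, was among the 5 lower, at 63.8, 33.4 and 21.2 CPM and a ratio of 0.523 (0.365 to 0.751). Txnrd2 was at 0.548 (0.313 to 0.961), Taldo1 at 0.609 (0.549 to 0.675), Gstm1 at 0.614 (0.517 to 0.728) and Prdx5 at 0.655 (0.582 to 0.738). Of 45 other pathway genes, 3 were higher and 5 lower. Glrx was at 1.86 (1.35 to 2.61), while Ephx1, at 3.95 (1.54 to 12.9), and Txndc5, at 1.52 (1.09 to 2.16), lay under their levels in B cell-like cells. Osgin1 was at 0.343 (0.139 to 0.803), Cbr1, a carbonyl reductase, at 0.388 (0.196 to 0.754), Ccs, the copper chaperone of SOD1, at 0.465 (0.271 to 0.794) and Ftl1 at 0.650 (0.631 to 0.670).

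In DJ-1 KO OVA against WT OVA, 9 of 34 members were lower in alveolar macrophage-like cells and 1 higher, where 18.5% of 9113 genes were lower and 11.9% higher. The median of the members was a log2 ratio of -0.27, against -0.09 for all genes. Gstm1 was the farthest from 1, at 251 (222 to 284), 154 (137 to 173) and 33.0 (25.8 to 41.4) CPM and a ratio of 0.214 (0.163 to 0.277). Gstp1 stood at 55.1, 45.1 and 15.4 CPM, a ratio of 0.341 (0.222 to 0.513). Prdx5 stood at 500.0, 328 and 148 CPM, a ratio of 0.451 (0.393 to 0.516). For these 3 the DJ-1 KO OVA value was below both wild-type values, with counting intervals that did not overlap theirs. Other members, such as Gsr and Sqstm1, were also below both wild-type values. The share of all genes with this pattern is not given. Gsr stood at 294, 294 and 144 CPM, alike in the wild-type libraries, with a DJ-1 KO OVA over WT OVA ratio of 0.492 (0.427 to 0.565). G6pdx was at 0.497 (0.361 to 0.680), Taldo1 at 0.598 (0.535 to 0.668), Sqstm1 at 0.627 (0.573 to 0.686) and Cat at 0.630 (0.496 to 0.798), the last under its level in B cell-like cells. Gclm, the ninth member lower, was at 0.635 (0.426 to 0.942). Gpx3, the 1 member higher, was at 1.99 (0.872 to 4.93), with an interval that includes 1.

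Gsr, Prdx5 and Taldo1 are led by neutrophil-like cells in level, and neutrophil markers were lower in DJ-1 KO OVA too. The neutrophil marker sums were under 1% of those in neutrophil-like cells in each library. Erythroid markers also differed between the libraries in these cells, at 7011, 1003 and 47.9 CPM in sum. The part of either in the ratios was not tested. Without any cell of a shared barcode Gsr was at 0.462, Prdx5 at 0.332, Gstm1 at 0.201 and Sqstm1 at 0.602. Gstp1 was at 0.114 and G6pdx at 0.259 in that setting, while Taldo1 and Cat lost their calls at 0.702 and 0.747. Of 45 other pathway genes, 2 were higher and 12 lower. Selenos, a selenoprotein of the endoplasmic reticulum, was at 1.77 (1.58 to 1.99) and Ugdh at 1.51 (1.09 to 2.12). Selenop was at 0.220 (0.177 to 0.272), Mgst3 at 0.371 (0.291 to 0.468), Blvra at 0.510 (0.404 to 0.642) and Msra, which repairs oxidised methionine, at 0.532 (0.288 to 0.960).

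**Figure D4:**
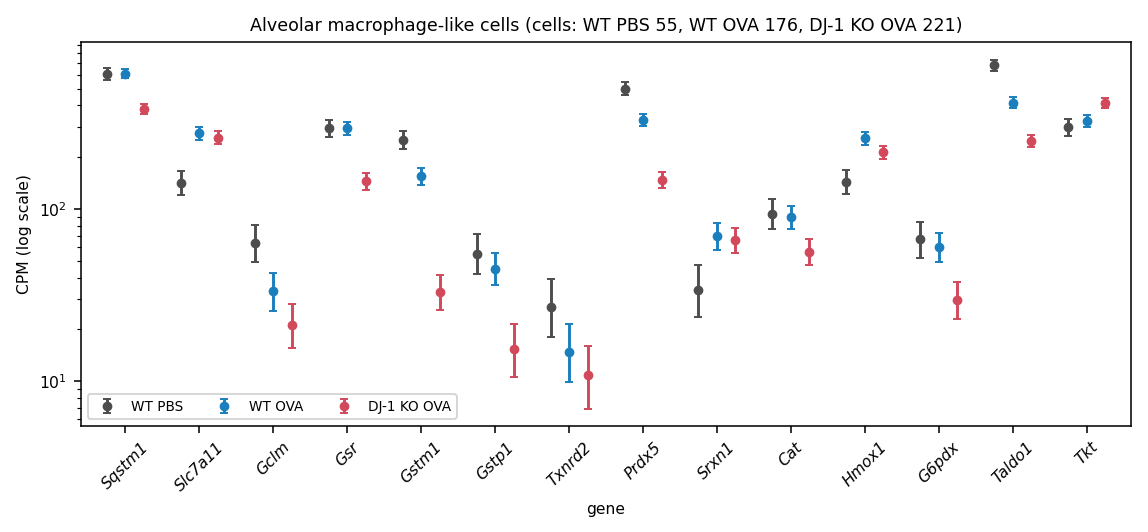
Levels (CPM, log scale) of 14 members in alveolar macrophage-like cells, with points for the libraries and bars for 95% Poisson intervals. Slc7a11, Srxn1 and Hmox1 are lowest in WT PBS, and Gsr, Gstm1, Gstp1, Prdx5, G6pdx and Taldo1 are lowest in DJ-1 KO OVA.

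Interstitial macrophage-like cells, which carry C1q genes, were few, with 32, 64 and 79 cells. Hmox1 stood at 88.8, 215 and 703 CPM there, with ratios of 2.42 (1.46 to 4.15) for WT OVA over WT PBS and 3.27 (2.48 to 4.38) for the knockout over WT OVA. Slc7a11 stood at 38.1, 243 and 359 CPM, with ratios of 6.39 (3.20 to 14.5) and 1.48 (1.09 to 2.01). Prdx1 stood at 474, 685 and 1286 CPM and Tkt at 118, 282 and 501 CPM. For all 4 genes WT PBS was lowest and DJ-1 KO OVA highest. Gstm1 stood at 63.4, 102 and 13.2 CPM and was lowest in DJ-1 KO OVA, as in alveolar macrophage-like cells. These genes of a small class were chosen after their values were seen.

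Fibroblast-like cells held 341, 456 and 285 cells, and their 12 markers were all present, at 22489, 19817 and 20504 CPM in sum. Erythroid markers summed to 2883, 323 and 65.0 CPM in them, and their part in the ratios was not tested. Relative to WT PBS, 2 of 39 members were higher and 4 lower in WT OVA, where 7.66% of 10549 genes were higher and 10.1% lower. Over the members the median was a log2 ratio of -0.00 and that of all genes -0.02. Hmox1 stood at 17.5, 43.9 and 31.8 CPM, a ratio of 2.51 (1.75 to 3.66). Slc7a11, the other higher member, was at 2.07 (0.895 to 5.06), with an interval that includes 1. Among the transferases, 3 stood lower in WT OVA. Gsta3 was at 113, 72.1 and 36.5 CPM, a ratio of 0.637 (0.522 to 0.776), and Gsta4 at 0.383 (0.175 to 0.771). Gstp1 was at 142, 93.3 and 70.3 CPM, a ratio of 0.658 (0.551 to 0.782), close enough to the limit that 4 settings ended its call. Prdx4 was at 64.1, 34.7 and 33.2 CPM, a ratio of 0.540 (0.406 to 0.713). The 2 secreted enzymes that mark these cells were not past the limit: Gpx3 had a ratio of 1.48 (1.40 to 1.56) and Sod3 of 1.06 (1.00 to 1.13). Of 58 other pathway genes, 3 were higher and 8 lower, among them Glrx at 2.89 (1.77 to 4.87), Osgin1 at 2.0001 (1.34 to 3.01) and Bach1, a repressor of NRF2 targets, at 1.605 (1.24 to 2.08). Cbr1 was at 0.465 (0.284 to 0.741), Gstt3 at 0.573 (0.337 to 0.948), Gstm5 at 0.586 (0.442 to 0.773) and Aox1, aldehyde oxidase, at 0.589 (0.401 to 0.853).

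Relative to WT OVA, 3 of 38 members of DJ-1 KO OVA were higher in fibroblast-like cells and 3 lower, where 13.7% of 10051 genes were higher and 8.13% lower. The member median was a log2 ratio of 0.07, against 0.09 for all genes. Gsta3 was the farthest lower, at 0.506 (0.365 to 0.692), and it kept that call under every setting run. Mgst1 was at 164, 121 and 78.9 CPM, a ratio of 0.654 (0.522 to 0.816), and Srxn1 at 0.663 (0.460 to 0.941). Both calls ended without the cells of shared barcodes, at 0.709 and 0.847. Tkt, at 1.54 (1.26 to 1.88), and Txn2, at 1.51 (1.14 to 1.99), stood higher, both under their levels in B cell-like cells. Gss was at 1.55 (0.674 to 3.57). Gpx3, at 1.30 (1.24 to 1.37), and Sod3, at 1.22 (1.14 to 1.30), stayed within the limit. Of 58 other pathway genes, 4 were higher and 9 lower. Selenos was at 1.96 (1.70 to 2.27) and Idh1, an NADPH-making isocitrate dehydrogenase, at 1.72 (1.31 to 2.27). Osgin1 was at 0.146 (0.0565 to 0.316), Gstp2 at 0.221 (0.0560 to 0.637), Blvrb at 0.535 (0.375 to 0.754) and Glrx at 0.554 (0.323 to 0.921).

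T cell-like cells held 329, 653 and 591 cells, without cycling clusters and a cluster led by Rag1 and Dntt (29, 10 and 785 cells). Clusters with Cd3e that were left unnamed were also outside the class. They were led by Lef1 and Ccr7 (548, 739 and 482 cells), by Cd163l1 and Il17a (73, 106 and 71 cells), by Il1rl1 and Tnfsf8 (5, 44 and 78 cells) and by B cell genes (25, 34 and 22 cells). The make-up of the class differed between libraries. A cluster led by Icos held 91, 197 and 208 cells, a cluster led by Foxp3 19, 102 and 77, and a cluster with Cd8a among its leading genes 219, 354 and 306. The part of this in the ratios was not tested. The 10 T cell markers were all present, at 3718, 3789.8 and 4009 CPM in sum. In WT OVA against WT PBS, 5 of 29 members were higher and 3 lower, where 14.2% of 8572 genes were higher and 7.12% lower. The members had a median log2 ratio of 0.16, against 0.10 for all genes. Sod1 stood at 230.3, 384 and 422 CPM, a ratio of 1.67 (1.47 to 1.89), and Gsr at 30.2, 59.97 and 66.8 CPM, a ratio of 1.99 (1.41 to 2.82). Gss was at 2.16 (1.16 to 4.15) and Tkt at 1.53 (1.26 to 1.86), and 8 settings ended the call of Tkt, with 1.44 without shared barcodes. The first 3 of these genes were above 1 with the Lef1 and Ccr7 cluster added too, at 1.68, 1.67 and 2.25. Gstp1 was lower, at 105, 54.2 and 27.6 CPM and a ratio of 0.518 (0.397 to 0.672). Of 42 other pathway genes, 3 were higher and 2 lower. Osgin1 was at 4.73 (1.72 to 16.1), with values from 2.53 with the Lef1 and Ccr7 cluster to 17.6 without shared barcodes. Selenom, a selenoprotein, was at 2.81 (1.17 to 7.42), but at 1.10 at the finer clustering and 1.11 with the libraries clustered separately. Blvra was at 0.546 (0.294 to 0.977). Glrx was at 1.85 (1.44 to 2.38), but at 0.818 with a doublet score limit of 0.25.

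In DJ-1 KO OVA against WT OVA, 1 of 28 members was higher in T cell-like cells and 3 lower, where 11.3% of 8306 genes were higher and 7.86% lower. The members' median was a log2 ratio of 0.14, against 0.11 for all genes. Gstp1 was again lower, at 0.508 (0.329 to 0.768). Txn1 stood at 252, 238 and 148 CPM, a ratio of 0.621 (0.516 to 0.745), and 4 settings ended its call, with values up to 0.732, and 0.694 without shared barcodes. Gss was at 0.465 (0.211 to 0.950), so its WT OVA value was the highest of the 3 at 9.17, 19.8 and 9.19 CPM, and without shared barcodes its ratio was 0.281. Gsto1, the 1 member higher, was at 1.70 (0.998 to 2.92). It is led by airway secretory-like cells, and the part of free RNA in this ratio was not tested. Of 42 other pathway genes, 5 were higher and 0 lower. Maff was at 2.24 (1.63 to 3.08), Selenos at 1.83 (1.48 to 2.27) and Sesn1, a stress-induced sestrin, at 1.61 (1.13 to 2.31), the last under its level in B cell-like cells.

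B cell-like cells held 624, 924 and 328 cells, with 9 of 9 markers present at 9667, 10933 and 10497 CPM in sum, and they had the fewest UMIs of the 6 classes in DJ-1 KO OVA, 395820. Relative to WT PBS, 3 of 30 members were higher and 4 lower in WT OVA, where 13.3% of 8554 genes were higher and 8.21% lower. Over the members the median was a log2 ratio of 0.11, against 0.09 for all genes. Gpx1 stood at 151, 235 and 202 CPM, a ratio of 1.55 (1.32 to 1.83), and Gsto1 was at 2.44 (1.19 to 5.15). Gsto1 had a mean of 1753 CPM in airway secretory-like cells, and the part of free RNA in its B cell ratio was not tested. Gstp1 stood at 37.5, 14.3 and 15.2 CPM, a ratio of 0.382 (0.219 to 0.638), and Prdx4 was at 0.344 (0.116 to 0.852). Of 42 other pathway genes, 4 were higher and 2 lower, with Akr1a1, an aldo-keto reductase, at 1.51 (1.23 to 1.85) and Blvrb at 0.625 (0.466 to 0.832). Relative to WT OVA, 2 of 24 members of DJ-1 KO OVA were higher and 3 lower, where 12.8% of 7312 genes were higher and 11.6% lower. The members had a median log2 ratio of 0.01, against 0.08 for all genes. Gclc stood at 61.9, 77.8 and 131 CPM, a ratio of 1.69 (1.19 to 2.38), and Tkt at 93.1, 102 and 174 CPM, a ratio of 1.71 (1.26 to 2.30). Prdx5 was at 0.537 (0.274 to 0.971). Of 36 other pathway genes, 7 were higher and 3 lower. Sesn1 was at 2.92 (2.23 to 3.84), Maff at 2.13 (1.17 to 3.79), Mafg at 1.74 (1.14 to 2.63) and Rpia, of the pentose phosphate pathway, at 1.70 (1.20 to 2.39). Txndc17 was at 0.379 (0.133 to 0.880), Akr1a1 at 0.631 (0.429 to 0.904) and Selenop at 0.454 (0.187 to 0.953). Selenop was above 1 with doublets kept, at 1.22, and with the libraries clustered separately, at 1.40.

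**Figure D5:**
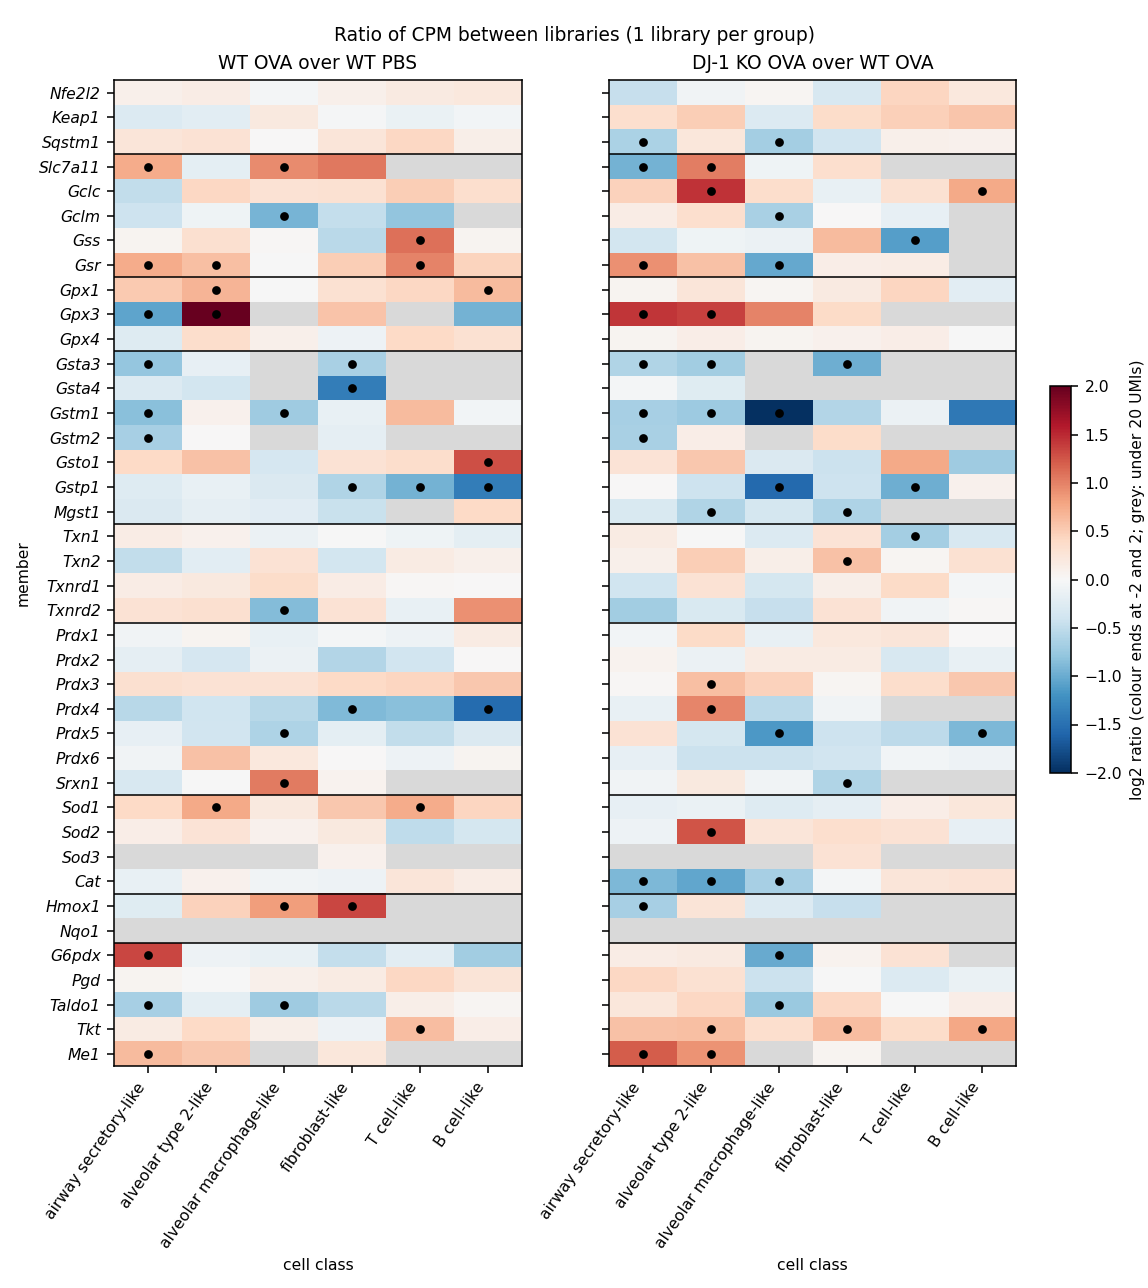
Log2 ratio of CPM for each member (rows) in 6 classes (columns), with WT OVA over WT PBS on the left and DJ-1 KO OVA over WT OVA on the right, from 1 library per group. Dots mark ratios past 1.5-fold with a 95% counting interval that excludes 1, and grey marks under 20 UMIs. Gclc in alveolar type 2-like cells and Gstm1 in alveolar macrophage-like cells stand out on the right.

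Some members stood on the same side of 1 in every class measured. The classes of a library share its preparation, so they are not replicates. The share of all genes that stood on 1 side in every class is not given. The counts below are therefore not traits particular to the members. In WT OVA against WT PBS, Prdx4 was below 1 in 6 of 6 classes, with ratios from 0.344 to 0.759, and past 1.5-fold in 3. Gstp1 was below 1 in 6 of 6, from 0.382 to 0.900, and past the limit in 3. Prdx5 was below 1 in 6 of 6, from 0.655 to 0.890, and past it in 1. Sod1 and Prdx3 were above 1 in 6 of 6, Sod1 from 1.14 to 1.69 and Prdx3 from 1.22 to 1.45. Sod1 passed the limit in 2 classes and Prdx3 in 0.

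In DJ-1 KO OVA against WT OVA, Gstm1 was below 1 in 6 of 6 classes, from 0.214 to 0.924, and past 1.5-fold in 4. Gsta3 was below 1 in the 3 classes where it was measured and past the limit in all 3, and Mgst1 in the 4 where it was measured and past it in 2. These counts depend on the cells used: Gstm1 was at 1.00 in airway cells without shared barcodes, and outside the Slc26a4 cluster Gstm1 was at 1.11 and Gsta3 at 1.04 in alveolar type 2-like cells. Prdx6 was below 1 in 6 of 6, from 0.739 to 0.963, and past the limit in 0. Tkt was above 1 in 6 of 6, from 1.27 to 1.71, and past the limit in 3. Prdx3 and Txn2 were also above 1 in 6 of 6. Nfe2l2 itself was past 1.5-fold in 0 of the 6 classes in either comparison, with ratios from 0.724 to 1.34 in DJ-1 KO OVA against WT OVA, nor was Keap1. Within club-like clusters Nfe2l2 was past it, at 0.626.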

How the data were processed

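Single-cell RNA of whole lung was deposited as 1 matrix of UMI counts per library, raw counts that the authors made with Cell Ranger and STAR on mm10, per the submitters' processing notes. Per the file headers the software version was 3.1.0. The annotation release is not given in the sources used here. The 3 groups held 1 library each. Cells with under 200 genes or over 20% mitochondrial UMIs were dropped, and Scrublet doublets were removed (WT PBS lost 57, WT OVA 162 and DJ-1 KO OVA 3, so few in the last library). The lower-UMI cell of each barcode shared by WT PBS and DJ-1 KO OVA was left out, and WT OVA shared 6 barcodes with WT PBS and 5 with DJ-1 KO OVA. Cells were clustered with scanpy 1.11.5 (2000 variable genes, 30 components, Leiden resolution 1) into 39 clusters, named from marker lists where at least 3 markers were detected. UMIs were summed per class and library, classes needed 25 cells, and ratios of CPM carry exact intervals from SciPy 1.17.1. Intervals and calls were tested on simulated counts with counting error only, which is the error the intervals assume. Spread between cells, mice or libraries was not simulated. Named genes were members past 1.5-fold with at least 20 UMIs and an interval excluding 1, up to 8 in each direction, and up to 4 of 68 other pathway genes. Members measured but outside that rule are named where a count needed them. The members and lists were chosen with earlier results of these data known. Coordinates are from RefSeq, GRCm38.p6. The alternatives covered cell filters, clustering, scaling and low counts, and 3 were chosen after seeing the data.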

Additional observations from a re-analysis of the deposited data

Results flagged for a closer look

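For 2 members the DJ-1 KO OVA over WT OVA ratio was past 1.5-fold in opposite directions in 2 classes, each with an interval that excluded 1. The difference between the classes was not tested, since each group is 1 library. Slc7a11, the cystine importer, was at 0.517 (0.343 to 0.770) in airway secretory-like cells and 2.03 (1.23 to 3.33) in alveolar type 2-like cells. It rested on 29, 74 and 40 UMIs in airway cells and 30, 35 and 35 UMIs in alveolar type 2-like cells, in the order of libraries used above. The airway value was 1.51 without the cells of shared barcodes, from few DJ-1 KO OVA UMIs. In the airway class the ratio was 0.778 (0.481 to 1.23) in club-like and 0.652 (0.245 to 1.84) in goblet-like clusters, both with intervals that include 1. In alveolar type 2-like cells it was 0.604 (0.3305 to 1.13) in the Slc26a4 cluster, which held 226 of the 297 DJ-1 KO OVA cells, and 2.58 (0.627 to 7.98) in the main cluster, again with intervals that include 1. Gsr, glutathione reductase, was at 1.89 (1.68 to 2.12) in airway secretory-like cells and 0.492 (0.427 to 0.565) in alveolar macrophage-like cells, and without the cells of shared barcodes these were 2.91 and 0.462.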

How the results depend on the processing

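Of 144 named gene ratios, 78 kept their call under every setting run for them and 14 changed direction under at least 1. There were 15 settings in all, 13 of which give gene ratios, with 10 or 11 for each ratio. The settings that change cells within a class (club-like clusters only, outside the Slc26a4 cluster, with the Lef1 and Ccr7 cluster) were chosen after seeing the data. The cause of a change was not tested. No paired analysis was possible because each group is 1 library. With both cells of shared barcodes left out, airway WT OVA over WT PBS has no value, since WT PBS then has under 25 airway cells. Depth limits T cell-like and B cell-like cells most.

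Ratios that changed direction were these. In airway WT OVA over WT PBS, Slc7a11 was 0.919 with cells weighted alike, and Gstm5 was 1.73 with smaller cells kept, 1.61 at Leiden resolution 2 and 1.97 where libraries were clustered separately. In airway DJ-1 KO OVA over WT OVA, both cells left out gave Sqstm1 1.31, Slc7a11 1.51, Gstm1 1.00, Hmox1 3.05, Glrx 0.654 and Glrx2 0.525. Few DJ-1 KO OVA UMIs remained for these values. There, weighting cells alike gave Sqstm1 1.11 and Hmox1 1.05, and club-like clusters gave Hmox1 1.09. In alveolar type 2-like DJ-1 KO OVA over WT OVA outside the Slc26a4 cluster, Gsta3 was 1.04, Gstm1 1.11, Prdx4 0.990 and Akr1b8 0.869. Glrx in T cell-like WT OVA over WT PBS was 0.965 with both cells left out and 0.818 with a doublet limit of 0.25. Selenop in B cell-like DJ-1 KO OVA over WT OVA was 1.22 with doublets kept and 1.40 where libraries were clustered separately.

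Counts of members past 1.5-fold that moved by over 1.5 times are given here as higher or lower, with WT OVA over WT PBS called the first comparison and DJ-1 KO OVA over WT OVA the second. The members measured and the share of all genes in each setting are not given beside them. They show only how far the counts moved. With smaller cells kept, the first had airway 1 higher and 9 lower, alveolar type 2 3 higher, and T cell 3 higher and 1 lower, and the second T cell 4 higher. With both cells left out, the second had airway 13 higher, alveolar macrophage 3 higher and T cell 4 higher, and the first T cell 1 lower. With at most 10% mitochondrial UMIs, the second had airway 5 higher. With cells weighted alike, the second had airway 8 higher and 4 lower and fibroblast 5 higher and 1 lower, and the first alveolar type 2 3 higher, fibroblast 4 higher and T cell 5 lower. With club-like clusters only, the second had airway 3 lower. With median of ratios scaling, the first had alveolar type 2 3 higher and T cell 3 higher and 5 lower, and the second fibroblast 0 higher. CPM without the 50 top genes gave the first alveolar type 2 2 higher and T cell 3 higher. At least 50 UMIs gave the first alveolar type 2 3, fibroblast 1 and T cell 3 higher and B cell 1 higher and 1 lower, and the second alveolar macrophage 0 higher and B cell 1 lower. With doublets kept, the first had alveolar type 2 1 lower and fibroblast 1 higher, and the second fibroblast 1 higher and 6 lower. With no filter on low counts, the first had alveolar type 2 1 lower, alveolar macrophage 5, T cell 11 and B cell 11 higher, and the second alveolar macrophage 5 and B cell 10 higher and T cell 6 higher and 6 lower. With each library clustered on its own, the first had fibroblast 1 higher and T cell 1 lower, and the second B cell 1 lower. Leiden resolution 2 gave the first fibroblast 2 lower and the second T cell 0 higher. T cell-like cells with the Lef1 and Ccr7 cluster had 3 higher in the second.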

Other observations

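The small class of interstitial macrophage-like cells (32, 64 and 79 cells) had further members with intervals that excluded 1. In WT OVA against WT PBS, Txnrd1 stood at 54.98, 205 and 165 CPM, a ratio of 3.73 (2.03 to 7.38). Srxn1 stood at 21.1, 89.7 and 23.1 CPM, with ratios of 4.24 (1.62 to 14.1) for WT OVA over WT PBS and 0.257 (0.0949 to 0.603) for the knockout over WT OVA. Txn1 stood at 237, 535 and 270.4 CPM, with ratios of 2.26 (1.66 to 3.11) and 0.506 (0.383 to 0.663). Both Srxn1 and Txn1 were highest in WT OVA, while Hmox1 and Prdx1 were highest in DJ-1 KO OVA. Nfe2l2 stood at 398, 224 and 307 CPM, a WT OVA over WT PBS ratio of 0.564 (0.408 to 0.777).

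In the unnamed cluster led by Lef1 and Ccr7, Gstp1 stood at 73.3, 33.9 and 10.6 CPM, with ratios of 0.463 (0.332 to 0.636) and 0.313 (0.128 to 0.665) in the same order. Sod1 stood at 215, 362 and 365 CPM, a WT OVA over WT PBS ratio of 1.68 (1.49 to 1.90), and Gpx1 at 108, 184 and 206 CPM, a ratio of 1.70 (1.43 to 2.01). Pgd was at 2.43 (1.53 to 3.89) in that comparison. Nfe2l2 was at 1.59 (1.12 to 2.26) and Tkt at 1.62 (1.27 to 2.07) in DJ-1 KO OVA against WT OVA. The genes of both paragraphs were chosen after their values were seen.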
